A study of Mus musculus with 9 samples.

Results

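The syndecans are the 4 transmembrane proteoglycan genes Sdc1, Sdc2, Sdc3 and Sdc4, taken here by gene symbol from a transcript table of sorted mouse bone marrow cells. They account for 4 of the 20635 gene symbols and for 11 of the 58094 transcripts in that table. All 4 genes and 6 of the 11 transcripts passed the filter on low values, which kept features with 1 CPM or more (CPM being reads scaled to the library's total) in 3 or more libraries. RNA came from C57BL/6J mice aged 10 weeks, and the labels give no genetic change and no drug. The labels' protocol says male mice and the series description says both sexes. Marrow of femur and tibia was depleted of lineage-positive cells, stained and sorted by flow cytometry. The gate, KSL CD34-, enriches blood stem cells and keeps cells with c-Kit and Sca-1 and without lineage markers or CD34. The whole gate (Parent), its cells with surface Syndecan-2 (Syndecan-2+) and its cells without it (Syndecan-2-) gave 3 libraries each, from 10000 sorted cells per library. Nothing says that the 3 libraries of a population came from different mice, so each p-value reflects library-to-library spread alone, part of which may be technical.

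Syndecans carry heparan sulfate chains on an ectodomain, cross the membrane once and end in a short tail inside the cell. The chains bind growth factors, chemokines and matrix proteins and present them to signalling receptors and integrins, the tail binds PDZ domain proteins such as syntenin and signalling kinases, and metalloproteases release the ectodomain. Syndecan-1 is known as CD138, a marker of plasma cells and epithelia. Syndecan-2 is known from fibroblasts, endothelium and bone cells, syndecan-3 from neural tissue and muscle, and syndecan-4, a component of focal adhesions, from most tissues.

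The ends of the coding sequences show how much the members share and how far reads can tell them apart. They are the last 90 coding bases with the stop codon of Sdc1-001 (chromosome 12), Sdc2-001 (chromosome 15), Sdc3-001 (chromosome 4) and Sdc4-001 (chromosome 2), from GENCODE M21 on build GRCm38, and capitals mark the 15 positions, counted back from the stop without gaps, at which all 4 have the same base.
Sdc1: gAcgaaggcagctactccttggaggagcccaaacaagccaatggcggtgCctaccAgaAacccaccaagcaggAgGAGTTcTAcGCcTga
Sdc2: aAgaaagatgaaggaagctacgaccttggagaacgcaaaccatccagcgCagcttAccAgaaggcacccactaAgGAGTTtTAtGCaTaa
Sdc3: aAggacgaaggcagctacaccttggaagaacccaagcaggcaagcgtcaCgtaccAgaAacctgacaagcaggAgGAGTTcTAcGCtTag
Sdc4: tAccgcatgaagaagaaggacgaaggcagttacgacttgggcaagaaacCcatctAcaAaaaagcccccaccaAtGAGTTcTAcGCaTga
Counted this way, the marked bases crowd at the very end, which encodes the part of the tail that binds PDZ domains. The count without gaps misses likeness at differing distances from the stop. Sdc1 and Sdc3 both hold cgaaggcagctac further upstream, and Sdc2 and Sdc4 hold near copies of it, left in lower case. Over the whole transcripts, the longest run of identical bases was 29 between Sdc3 and Sdc4, 27 between Sdc1 and Sdc3, 23 between Sdc1 and Sdc4 and 14 between Sdc2 and Sdc4. Sdc2 shared no run longer than 11 with Sdc1 or Sdc3.

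The most common low value among genes with a single listed transcript was taken as 1 read. On that scale 1 CPM stood for 15.5 to 20.6 reads depending on the library. A count of 3 reads, the least taken as detectable, stood for 0.146 to 0.194 CPM. Kit, the receptor c-Kit of the gate, was at 196 ± 20.7 CPM (SD, n = 3) in Parent libraries, and Ly6a, which encodes Sca-1, at 5.31 ± 0.723 CPM. Kit rose from 164 ± 12.7 CPM in Syndecan-2- to 259 ± 17.0 CPM in Syndecan-2+ libraries (limma adjusted p = 6.85e-06), and Ly6a was not called (limma adjusted p = 0.0627) except with the replicate number as a block (0.0337) or without Syndecan-2- library 3 (0.0289). Cd34, whose protein was selected against, was still at 174 ± 4.34 CPM in Parent libraries, and it fell from 203 ± 11.7 CPM in the Syndecan-2- fraction to 44.6 ± 6.36 CPM in the Syndecan-2+ fraction (limma adjusted p = 1.08e-11). Syndecan-2+ library 3 stood apart in bone matrix collagen: Col1a1 was at 21.04 CPM there and at 0.162 and 0.154 CPM in the other two. Of the other 7 genes the gate selects against, 2 were tested and both fell, Itgam, a myeloid integrin, from 16.3 ± 1.95 to 3.15 ± 1.21 CPM and Cd4, the T cell co-receptor, from 1.91 ± 0.237 to 0.901 ± 0.115 CPM, a call (limma adjusted p = 0.0433) lost when any 1 library of the sorted fractions was left out. Of all genes tested, 9.51% were called lower between these fractions. In these bulk libraries fewer cells of a type and less RNA per cell cannot be told apart.

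Sdc2, whose protein was used for the sort, was higher in Syndecan-2+ libraries and almost absent from Syndecan-2- libraries. The gene (ENSMUSG00000022261) lies on the plus strand of chromosome 15, and its main transcript spans 32920723 to 33034730. Its level was 0.477, 0.203 and 0.316 CPM in Syndecan-2- libraries 1, 2 and 3. Parent libraries held 1.81, 2.00 and 1.43 CPM, and Syndecan-2+ libraries held 5.23, 4.17 and 4.34 CPM. The 3 populations did not overlap, and every Parent library lay between the sorted fractions. All 9 Sdc2 values came out as whole reads within 0.1 read, at 9, 4 and 6 reads for Syndecan-2-, 28, 34 and 24 for Parent and 97, 86 and 79 for Syndecan-2+. The exact 95% Poisson interval, which covers counting error only, reached up to 0.905 CPM in Syndecan-2- library 1 and down to 3.34 CPM in Syndecan-2+ library 2, so these counting intervals did not meet. The means were 0.332 ± 0.137 and 4.58 ± 0.571 CPM, a 13.8-fold ratio. On the log2 scale of CPM plus 1 the difference was 2.07 (SE 0.19, limma adjusted p = 1.80e-07), 3.48 with a pseudocount of 0.1 and 0.84 with 5. As the sort used this gene's protein, the difference checks the labels and is not a separate finding. Without Syndecan-2+ library 3, the library with high Col1a1, it was 2.10.

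Sdc1, the plasma cell and epithelial syndecan CD138, fell where Syndecan-2 was on the surface. The gene (ENSMUSG00000020592) is on the plus strand of chromosome 12, from 8771323 to 8793715 by its longest transcript. It was at 18.8, 14.4 and 17.8 CPM without surface Syndecan-2, 13.8, 13.1 and 15.5 CPM in the whole gate and 4.90, 3.36 and 3.46 CPM in Syndecan-2+ libraries. Every Syndecan-2+ value was below every other value, while Syndecan-2- and Parent libraries overlapped. The Syndecan-2+ mean of 3.91 ± 0.863 CPM was 4.36-fold below the Syndecan-2- mean of 17.0 ± 2.29 CPM, with a log2 change of -1.88 (SE 0.14, 95% interval -2.19 to -1.58, limma adjusted p = 2.23e-08).

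Sdc4, the focal adhesion syndecan, fell in the same comparison by a smaller factor. The gene (ENSMUSG00000017009) is on the minus strand of chromosome 2, and its main transcript spans 164424247 to 164443186. It was at 10.7, 8.18 and 10.8 CPM in Syndecan-2- libraries, 6.71, 7.65 and 9.95 CPM in Parent libraries and 3.45, 3.88 and 3.07 CPM in Syndecan-2+ libraries. The Syndecan-2+ libraries were again the lowest, by a gap larger than their own spread. The ratio of means was 2.85, with a log2 change of -1.28 (SE 0.16, 95% interval -1.62 to -0.94, limma adjusted p = 8.94e-06).

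Sdc3, the syndecan best known from neurons and muscle, fell least. The gene (ENSMUSG00000025743) is on the plus strand of chromosome 4, and its main transcript spans 130792537 to 130826319. It was at 8.68, 7.01 and 10.7 CPM in Syndecan-2- libraries, 6.23, 6.35 and 8.93 CPM in Parent libraries and 4.22, 5.28 and 4.89 CPM in Syndecan-2+ libraries. The sorted fractions did not overlap, and Syndecan-2+ and Parent libraries were separated by less than the spread within Parent. The ratio of means was 1.83, with a log2 change of -0.74 (SE 0.17, 95% interval -1.10 to -0.39, limma adjusted p = 0.00267). The call was lost when the main transcript was tested in place of the gene (log2 -0.75, adjusted p = 0.0740 against a range of 0.000494 to 0.0740 over its 20 alternatives). GENCODE M21 places 2 genes on the opposite strand, Gm26716 and Gm12970, that share 415 and 48 exonic bases with Sdc3. The labels do not say whether counting used strand, so that reads from them cannot be told apart from Sdc3.

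**Figure D1:**
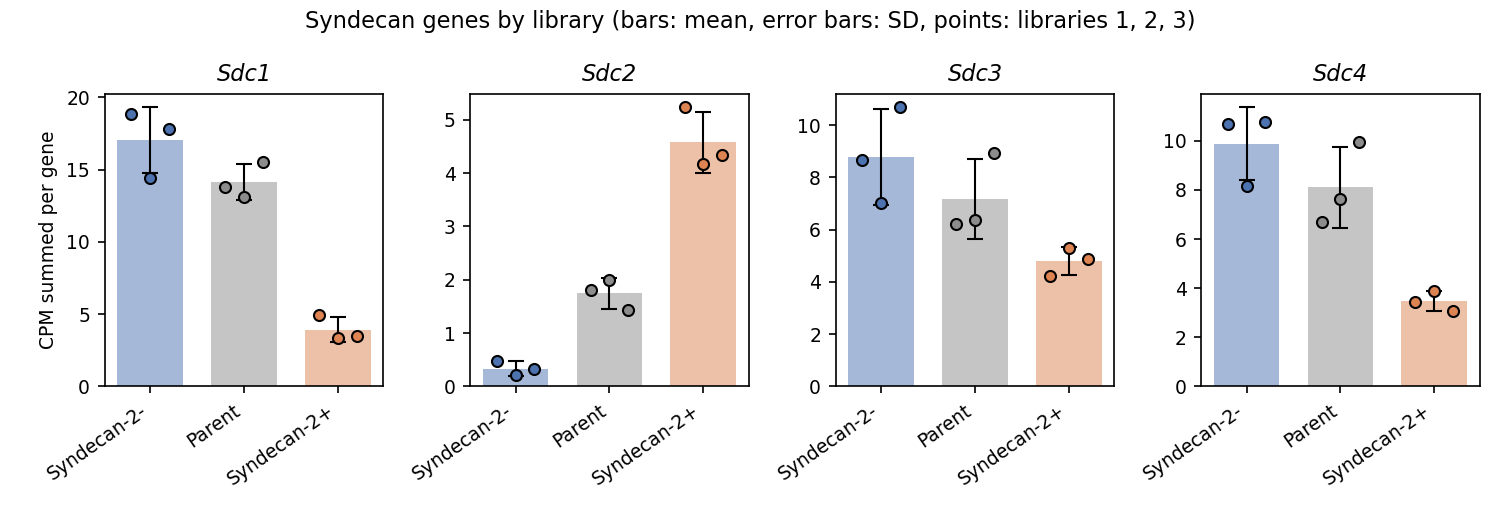
CPM summed per gene (vertical axis, linear, from 0, a scale of its own in each panel) for the 4 syndecan genes in the 3 sorted populations, with bars for the mean, error bars for the SD and points for libraries 1, 2 and 3. Sdc2 climbs from 0.332 to 1.75 to 4.58 CPM from Syndecan-2- over Parent to Syndecan-2+, and the other syndecans run the opposite way.

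Between the sorted fractions Sdc1, Sdc3 and Sdc4 were called and did not overlap, against 30.0% of the 13997 genes called and 42.5% without overlap. The same held for Sdc2, but its protein defined the sort, so it adds nothing to that comparison. Of the 4205 genes called, 2874 were higher and 1331 lower, and after trimmed-mean (TMM) rescaling 1991 were higher and 1987 lower. Sdc2 alone went up, against 20.5% of all genes called higher, and the other 3 went down, against 9.51% called lower. For each member the two-sided exact permutation test gave p = 0.1, its lower limit with 3 libraries a side. The 95% intervals of Sdc1 and Sdc3 did not overlap. Within each library, the log2 ratio of Sdc1 to Sdc4 in CPM averaged 0.79 ± 0.05 for Syndecan-2-, 0.82 ± 0.20 for Parent and 0.16 ± 0.36 for Syndecan-2+ (SD, n = 3), a description with no test.

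Against the whole gate, Syndecan-2+ libraries differed in Sdc1, Sdc4 and Sdc2, the last being the gene of the sorted protein. Of all genes 17.2% were called, 9.9% higher and 7.31% lower. No member overlapped, as was the case for 32.0% of all genes. Sdc2 was higher, at log2 1.02 (SE 0.19, adjusted p = 0.000814), Sdc1 lower at -1.64 (SE 0.14, adjusted p = 3.28e-07) and Sdc4 lower at -1.01 (SE 0.16, adjusted p = 0.000218), all in limma. Sdc3 was not called, at log2 -0.48 (SE 0.17, limma adjusted p = 0.0608). With the replicate number as a block, which treats libraries of the same number as paired, it was called lower at the same log2 value (SE 0.15, limma adjusted p = 0.0237). Without Parent library 3 it moved to -0.34 (limma adjusted p = 0.258).

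Syndecan-2- libraries differed from the whole gate in Sdc2 alone, the gene of the sorted protein, with 2.66% of all genes called and 2.54% called lower. Sdc2 was also the only member without overlap, against 18.1% of all genes. Sdc2 was lower at log2 -1.04 (SE 0.19, limma adjusted p = 0.00431), and a test of its main transcript alone gave -0.79 (adjusted p = 0.377 against a range of 0.00124 to 0.377 over its 20 alternatives). The log2 values of Sdc1, Sdc3 and Sdc4 were 0.25, 0.26 and 0.26 (adjusted p = 0.496 to 0.553), with 95% intervals that reached from -0.10 to 0.62. Both comparisons with Parent use the same Parent libraries. Measured in mean CPM, Parent lay 21.9% of the way from Syndecan-2- to Syndecan-2+ for Sdc1, 27.8% for Sdc4, 33.3% for Sdc2 and 40.5% for Sdc3, a description with no test.

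**Figure D2:**
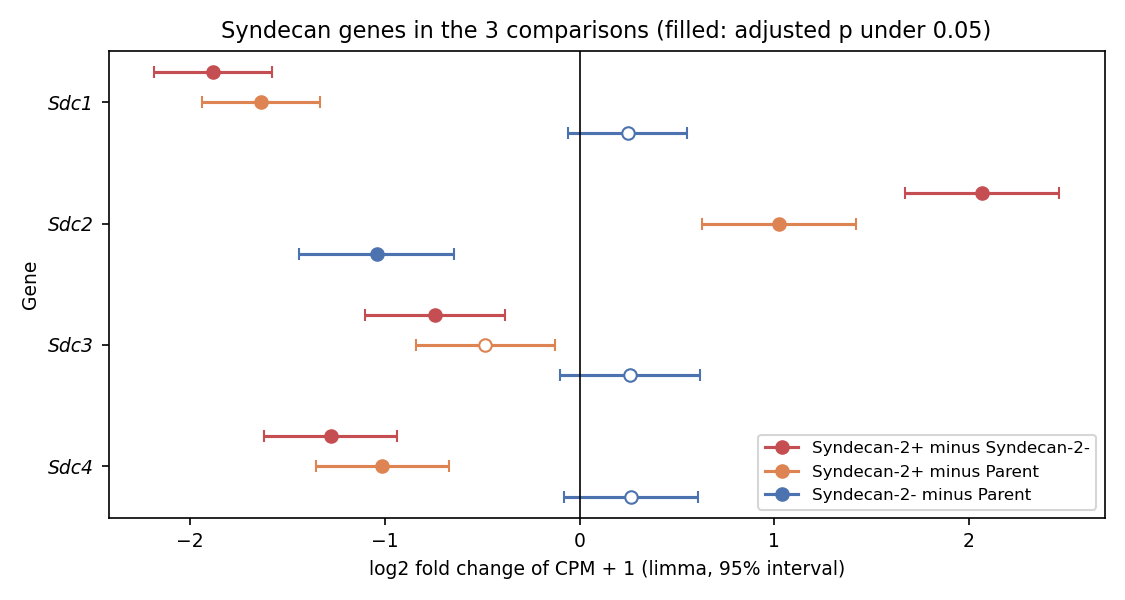
Log2 fold change of CPM plus 1 (horizontal axis) with its 95% limma interval for the 4 syndecan genes (vertical axis) in the 3 comparisons, filled where the adjusted p is under 0.05. The intervals of Sdc1, Sdc3 and Sdc4 in Syndecan-2- minus Parent include 0, and that of Sdc2 lies at -1.04 with a filled point.

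The family as a whole held fewer reads in Syndecan-2+ libraries, and its make-up differed. Together the 4 genes had 36.0 ± 5.38 CPM without surface Syndecan-2, 31.2 ± 4.06 CPM in the whole gate and 16.8 ± 1.03 CPM with surface Syndecan-2, and the Syndecan-2+ range of 15.8 to 17.8 CPM lay below that of both others. Sdc2 made up 0.904 ± 0.291% of these reads for Syndecan-2-, 5.73 ± 1.53% for Parent and 27.3 ± 2.21% for Syndecan-2+. Sdc1 went from 47.3 ± 2.05% in Syndecan-2- to 23.2 ± 3.86% in Syndecan-2+ libraries. Sdc4 went from 27.4 ± 0.211% to 20.7 ± 2.20%, and Sdc3 from 24.3 ± 2.37% to 28.8 ± 4.42%, where the libraries overlapped. These shares are of reads and are not corrected for transcript length.

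**Figure D3:**
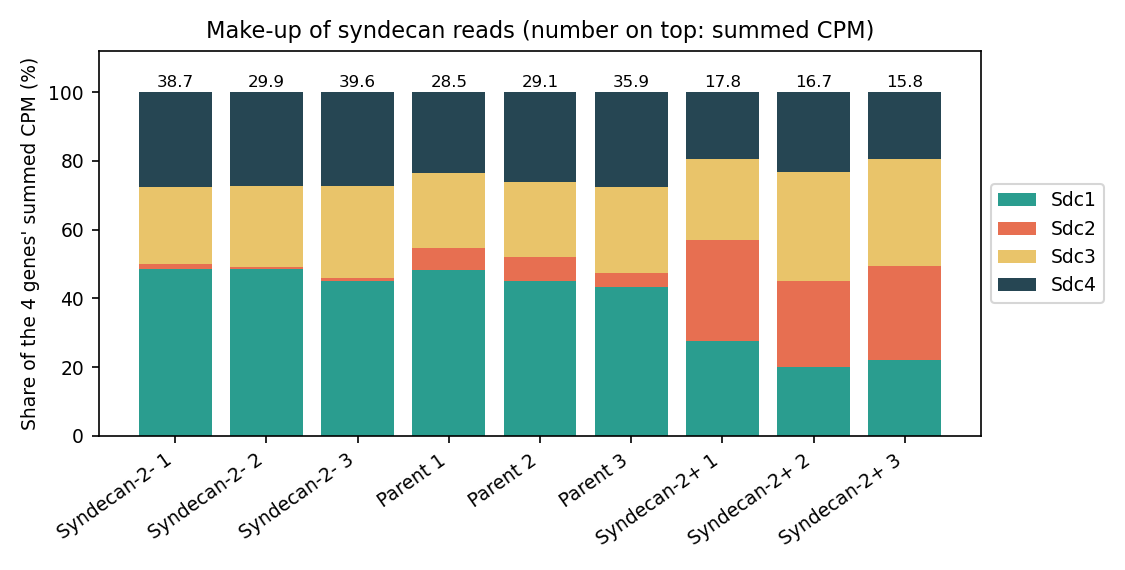
Share of the summed CPM of the 4 syndecan genes held by each (vertical axis, %, stacked) in each of the 9 libraries, with the summed CPM printed on top. The Sdc2 segment is 0.681 to 1.23% in Syndecan-2- libraries and 25 to 29.4% in Syndecan-2+ libraries.

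Per length, Sdc2 was far below the other members in Syndecan-2- libraries and near them in Syndecan-2+ libraries. In CPM per kilobase of transcript (GENCODE M21 lengths), the Syndecan-2- levels were 6.93 ± 0.357 for Sdc1, 6.03 ± 1.04 for Sdc4, 3.33 ± 0.707 for Sdc3 and 0.0889 ± 0.0310 for Sdc2. The libraries of Sdc1 and Sdc4 overlapped, and those of Sdc4, Sdc3 and Sdc2 did not. In Parent libraries the order was the same, at 5.36 ± 0.639, 4.93 ± 1.42, 3.07 ± 0.462 and 0.363 ± 0.0831 CPM per kilobase. In Syndecan-2+ libraries the levels were 2.01 ± 0.523 for Sdc4, 1.93 ± 0.274 for Sdc3, 1.80 ± 0.208 for Sdc1 and 1.26 ± 0.172 for Sdc2. There the ranges of Sdc4, Sdc3 and Sdc1 overlapped, and the highest Sdc2 library, at 1.446, lay just below the lowest of the other members' libraries, which was Sdc4 at 1.52. The order in Syndecan-2+ libraries depended on the short transcripts. With the main coding transcript of each gene alone, an alternative chosen after seeing the data, Sdc2-001 was at 1.26 ± 0.172, Sdc4-001 at 1.12 ± 0.0132, Sdc3-001 at 0.821 ± 0.134 and Sdc1-001 at 0.561 ± 0.134 CPM per kilobase there. Sdc2-001 then had the highest mean, its libraries overlapped those of Sdc4-001, and they lay above those of Sdc3-001 and Sdc1-001. In Syndecan-2- libraries the order was the same on both measures, with Sdc1-001 at 3.23 ± 0.563, Sdc4-001 at 3.06 ± 0.409 and Sdc3-001 at 1.53 ± 0.339 CPM per kilobase. In both measures the Sdc2 value rests on Sdc2-001, because the annotation of Sdc2-002 differs between the table and GENCODE M21.

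Of the 6 member transcripts tested, 3 fell, 1 rose and 2 were not called between the sorted fractions, where 8.02% of the 31579 transcripts tested were called. Sdc1 has a pair of main transcripts with the same coding sequence entry, Sdc1-001 and the shorter Sdc1-201. Sdc1-001 fell from 10.2 ± 1.78 CPM in Syndecan-2- to 1.77 ± 0.424 CPM in Syndecan-2+ libraries (log2 -2.01, SE 0.21, limma adjusted p = 0.000228). Sdc1-201 fell from 6.15 ± 1.28 to 1.83 ± 1.21 CPM (log2 -1.41, SE 0.37, limma adjusted p = 0.0420). The share of Sdc1-001 in its gene ran from 32.9 to 73.1% over the 9 libraries, and the populations overlapped.

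Sdc4-001 fell from 7.52 ± 1.01 to 2.76 ± 0.0325 CPM (log2 -1.17, limma adjusted p = 0.00235), and Sdc4-002, annotated as a processed transcript, was at 2.37 ± 0.541 and 0.708 ± 0.423 CPM and was not called (log2 -0.996, limma adjusted p = 0.0788). Sdc2-001, the coding transcript, rose from 0.314 ± 0.109 to 4.43 ± 0.607 CPM (log2 2.04, limma adjusted p = 0.000369). Sdc2-002, a short processed transcript at the 5' end of the gene (32920774 to 32921305) in the table's annotation, was near the detection floor. It was at 0.190, 0.861 and 0.344 CPM in Parent libraries and at 0.134, 0.25 and 0.0857 CPM in Syndecan-2+ libraries, and in Syndecan-2- libraries it was at 0.0544 CPM in library 1 and listed at 0 in the others. Parent libraries 2 and 3 and Syndecan-2+ library 2 alone were above their floor of 3 reads, and Parent and Syndecan-2+ libraries overlapped. Of the Sdc2 reads it made up 26.6% for Parent, or 16.5% without library 2, where it was 43.1% (10.5 and 24.1% in libraries 1 and 3). The share was 3.41% for Syndecan-2+, or 2.29% without library 2. It was 5.47% for Syndecan-2-, all of it from library 1. It was below the filter and was not tested. The short coding fragments Sdc3-004 and Sdc3-005 stood in a ratio of 3.0901 in every one of the 9 libraries, so their values did not vary independently.

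**Figure D4:**
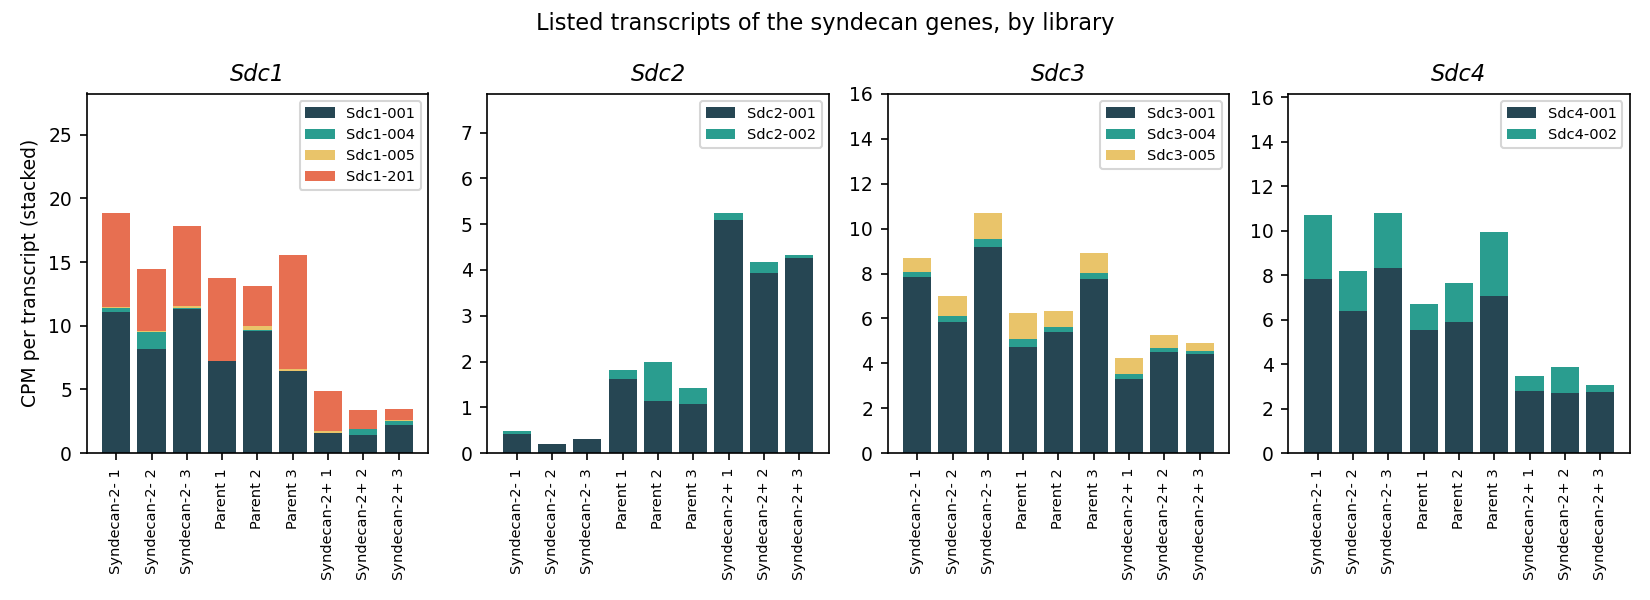
CPM per transcript (vertical axis, stacked, a scale of its own in each panel) for the 11 listed transcripts of the 4 syndecan genes in each of the 9 libraries. Sdc2-002 is visible mainly in the Parent libraries, at up to 0.861 CPM, and the shares of Sdc1-001 and Sdc1-201 vary from library to library.

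Promoter windows of Sdc1, Sdc3 and Sdc4 were read for short motifs. The promoter set used held no Sdc2 window, so the motifs cannot be set against the member that rose. The windows are the 300 bases around each gene start in RefSeq on GRCm38.p6, most of them upstream, and 3 of the 4 members were matched. They lie at chr12:8771146-8771445 on the plus strand for Sdc1, chr4:130792287-130792586 on the plus strand for Sdc3 and chr2:164443139-164443438 on the minus strand for Sdc4, and capitals mark GC boxes (GGGCGG or CCGCCC).
Sdc1: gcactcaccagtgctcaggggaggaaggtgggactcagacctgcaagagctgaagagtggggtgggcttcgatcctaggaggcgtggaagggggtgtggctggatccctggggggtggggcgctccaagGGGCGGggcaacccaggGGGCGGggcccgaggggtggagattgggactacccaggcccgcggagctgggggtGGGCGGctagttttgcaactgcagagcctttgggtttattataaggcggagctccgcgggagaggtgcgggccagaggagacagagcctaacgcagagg
Sdc3: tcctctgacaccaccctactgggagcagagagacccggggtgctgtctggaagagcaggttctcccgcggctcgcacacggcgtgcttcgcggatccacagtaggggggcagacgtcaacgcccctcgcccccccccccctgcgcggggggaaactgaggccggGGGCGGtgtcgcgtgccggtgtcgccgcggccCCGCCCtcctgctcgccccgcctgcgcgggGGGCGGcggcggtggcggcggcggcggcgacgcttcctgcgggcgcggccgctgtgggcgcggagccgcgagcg
Sdc4: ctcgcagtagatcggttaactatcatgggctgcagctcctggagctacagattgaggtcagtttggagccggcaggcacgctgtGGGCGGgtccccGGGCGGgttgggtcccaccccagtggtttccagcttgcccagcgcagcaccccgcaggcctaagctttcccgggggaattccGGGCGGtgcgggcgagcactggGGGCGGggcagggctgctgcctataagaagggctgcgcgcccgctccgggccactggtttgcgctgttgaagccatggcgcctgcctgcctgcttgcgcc
GC boxes numbered 3 for Sdc1, 3 for Sdc3 and 4 for Sdc4, on both strands together, and 35.9% of the 32544 RefSeq windows hold at least 1. Their GC content was 66.3, 77.7 and 67.7%, against a median of 53.0% over all windows. Neither strand of the 3 windows held the E-box letters CACGTG, present in 7.17% of all windows, the GATA letters AGATAA (11.2%), the ETS letters CGGAAG (17%), the RUNX letters TGTGGT (16.7%) or the TATA box letters TATAAA (13.6%). With GC boxes the only matches, no motif overlapped another kind.

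The genes whose pattern was most like each member were named by the root mean square difference of log2 CPM plus 1, each gene centred on its mean over the 9 libraries. Nearest to Sdc2 were Lhcgr, the luteinizing hormone receptor gene, at a difference of 0.12, Cadps2, a vesicle priming factor (0.125), Gucy1a3, a guanylate cyclase subunit (0.139), Sept8, a septin (0.144), and Fhdc1 (0.151). Lhcgr averaged 0.0529 ± 0.0917 CPM for Syndecan-2-, 1.16 ± 0.119 CPM for Parent and 3.84 ± 0.180 CPM for Syndecan-2+. Nearest to Sdc1 were Rag2, the antigen receptor recombinase subunit (0.0937), Cd69, a lymphocyte activation receptor (0.0999), Bin1, a membrane-bending protein (0.125), Zfp658 (0.126) and Cds1 (0.136). Rag2 went from 5.26 ± 0.810 over 4.50 ± 0.606 to 0.712 ± 0.299 CPM from Syndecan-2- over Parent to Syndecan-2+.

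Nearest to Sdc4 were Ppp3cc, a calcineurin subunit (0.12), Wfs1, a membrane protein of the endoplasmic reticulum (0.125), Mgat1, an enzyme of protein glycosylation (0.13), Cx3cr1, the fractalkine receptor (0.139), and Il7r, the interleukin-7 receptor (0.142). Nearest to Sdc3 were the interferon-induced genes Rtp4 (0.103) and Irf7 (0.13), Btnl9, a butyrophilin-like gene (0.121), Clmn (0.131) and Smad7, an inhibitor of TGF-beta signalling (0.133). Among the members themselves the distance was 0.271 for Sdc3 and Sdc4, 0.33 for Sdc1 and Sdc4 and 0.58 for Sdc1 and Sdc3. Sdc2 lay at 1.18 from Sdc3, 1.39 from Sdc4 and 1.65 from Sdc1. The distance of Sdc3 to a flat line was 0.361, against 0.576 for Sdc4 and 0.85 for Sdc1, and Sdc4 ranked 768 among the genes nearest to Sdc3. All of these libraries fall into the same 3 populations, so that likeness over the 9 libraries is mostly likeness over 3 levels.

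Genes that act around the syndecans were counted in 6 lists of 85 genes, of which 65 were tested. Between the sorted fractions 33 were higher and 7 lower, 61.5% called against 30.0% of all genes, and the lists were chosen with results of these data known. Among the 33, Ptn and Mmp16 reached 1 CPM in Syndecan-2+ libraries alone, so the filter admitted them by the fraction where they were high. The median log2 change of all genes was 0.102 and -0.005 after TMM rescaling, which left 28 of the 65 higher and 11 lower, so small changes are read against that shift. Against Parent, Syndecan-2+ libraries had 21 of the 65 higher and 8 lower (44.6%, with 17.2% of all genes called), and Syndecan-2- libraries had 0 higher and 10 lower (15.4%, with 2.66%).

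Among the ligands that bind heparan sulfate, 5 of the 9 tested were called, all of them higher, with a median log2 change of 0.87. Of all genes, 30.0% were called and 20.5% were called higher. Pf4, a platelet chemokine that binds heparin, rose from 6.09, 4.27 and 4.21 CPM in Syndecan-2- libraries to 43.2, 37.4 and 42.8 CPM in Syndecan-2+ libraries (log2 2.86, SE 0.13, limma adjusted p = 5.13e-11). Ptn, the growth factor pleiotrophin, rose from 0.0868 ± 0.0805 to 2.10 ± 0.770 CPM, and Hbegf, the heparin-binding EGF-like factor, from 2.10 ± 0.378 to 5.42 ± 1.11 CPM. Only Syndecan-2+ libraries reached 1 CPM for Ptn, so it could be tested only by being high there. The matrix genes Thbs1, thrombospondin-1, and Fn1, fibronectin, rose from 1.38 ± 1.09 to 4.36 ± 1.51 CPM and from 1.15 ± 0.410 to 3.02 ± 1.29 CPM. The Fn1 call (log2 0.87, limma adjusted p = 0.0121) was lost under quantile normalization (0.70), without Syndecan-2- library 1 (0.74) and without Syndecan-2+ library 2 (0.63).

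Of the 13 integrins and receptors that work with syndecans, 9 rose, 2 fell and 2 were not called, with a median of 0.46. Over all genes 20.5% were called higher and 9.51% lower. Itgb3, the beta3 integrin of platelets, rose from 12.0 ± 1.98 to 58.2 ± 17.3 CPM, Itga6, an integrin of laminin binding, from 28.2 ± 1.54 to 80.1 ± 9.49 CPM, Itga5, the fibronectin receptor subunit, from 15.1 ± 1.01 to 29.4 ± 2.80 CPM, and Fgfr1, an FGF receptor, from 3.81 ± 0.182 to 11.8 ± 1.32 CPM. The 2 that fell were Itgb5, the beta5 integrin, from 9.18, 12.4 and 11.6 CPM to 2.19, 2.23 and 1.94 CPM (log2 -1.94, SE 0.14, limma adjusted p = 1.47e-08), and Cxcr4, the CXCL12 receptor, from 53.4 ± 1.71 to 30.5 ± 5.62 CPM. Cxcr4 was named after its values were seen.

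Among 10 other proteoglycan core proteins with enough reads, 5 rose, 2 fell and 3 passed no threshold (all genes: 20.5% higher, 9.51% lower). Their median was 0.28. Bgn, the matrix proteoglycan biglycan, rose from 0.538, 0.927 and 0.605 CPM to 9.06, 7.91 and 9.06 CPM (log2 2.52, SE 0.19, limma adjusted p = 2.48e-08). Tgfbr3, betaglycan, the TGF-beta co-receptor, rose from 15.9 ± 1.92 to 75.5 ± 4.75 CPM, and Col18a1, a basement membrane collagen with heparan sulfate, from 1.10 ± 0.191 to 4.97 ± 0.534 CPM. Cd44, the hyaluronan receptor, fell from 123 ± 15.8 to 67.2 ± 1.55 CPM and Nrp1, the semaphorin and VEGF co-receptor neuropilin-1, from 4.97 ± 1.24 to 0.765 ± 0.431 CPM.

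Of the 13 enzymes that start the sugar chains, 3 were higher, 0 lower and 10 not called, a share near that of all genes (20.5% higher and 30.0% called), and their median was 0.18. Csgalnact1, which starts chondroitin sulfate chains, rose from 4.65 ± 1.10 to 30.3 ± 1.53 CPM (log2 2.48, SE 0.13, limma adjusted p = 1.68e-10). Ext2, a heparan sulfate polymerase subunit, rose from 23.3 ± 1.56 to 33.1 ± 1.07 CPM, and Fam20b, a kinase of the linker sugar, from 19.6 ± 1.59 to 25.9 ± 1.47 CPM.

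Among 13 cytoplasmic partners, 7 rose, 1 fell and 5 passed no threshold (all genes: 20.5% higher, 9.51% lower). Their median was 0.34, and under TMM rescaling 3 were higher and 3 lower. Cttn, the actin regulator cortactin, rose from 10.7 ± 1.12 to 36.1 ± 5.23 CPM, and Prkca, the kinase PKC alpha bound by syndecan-4, from 16.1 ± 1.25 to 35.3 ± 3.03 CPM. Sdcbp, which encodes syntenin, rose from 58.0, 52.5 and 53.8 CPM to 70.4, 68.0 and 78.1 CPM (log2 0.39, SE 0.07, limma adjusted p = 0.000467). Nf1, neurofibromin, rose from 25.9 ± 2.38 to 32.9 ± 2.77 CPM, a call lost under TMM rescaling (0.22), without Syndecan-2- library 2 (0.26) and without Syndecan-2+ library 3 (0.29). Ezr, the membrane linker ezrin, fell from 81.4 ± 4.73 to 63.7 ± 4.07 CPM.

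Of the 7 shedding enzymes and inhibitors tested, 4 rose, 2 fell and 1 passed no threshold (all genes: 20.5% higher, 9.51% lower). Their median was 0.39, and under TMM rescaling 4 were higher and 3 lower. Timp3, an inhibitor of metalloproteases, rose from 2.53 ± 1.30 to 20.9 ± 4.03 CPM (log2 2.68, SE 0.22, limma adjusted p = 4.53e-08). The membrane proteases Mmp14, Mmp16 and Adam10 rose from 1.12 ± 0.565 to 5.16 ± 0.280 CPM, from 0.0528 ± 0.0530 to 1.99 ± 0.851 CPM and from 70.0 ± 1.54 to 92.1 ± 4.20 CPM. Only Syndecan-2+ libraries reached 1 CPM for Mmp16, so it could be tested only by being high there. Hpse, heparanase, which cuts heparan sulfate chains, fell from 6.94, 6.50 and 6.52 CPM to 0.809, 1.41 and 0.549 CPM (log2 -2.02, SE 0.18, limma adjusted p = 1.80e-07). Mmp2, a secreted gelatinase, fell from 4.97 ± 0.888 to 2.05 ± 0.564 CPM.

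**Figure D5:**
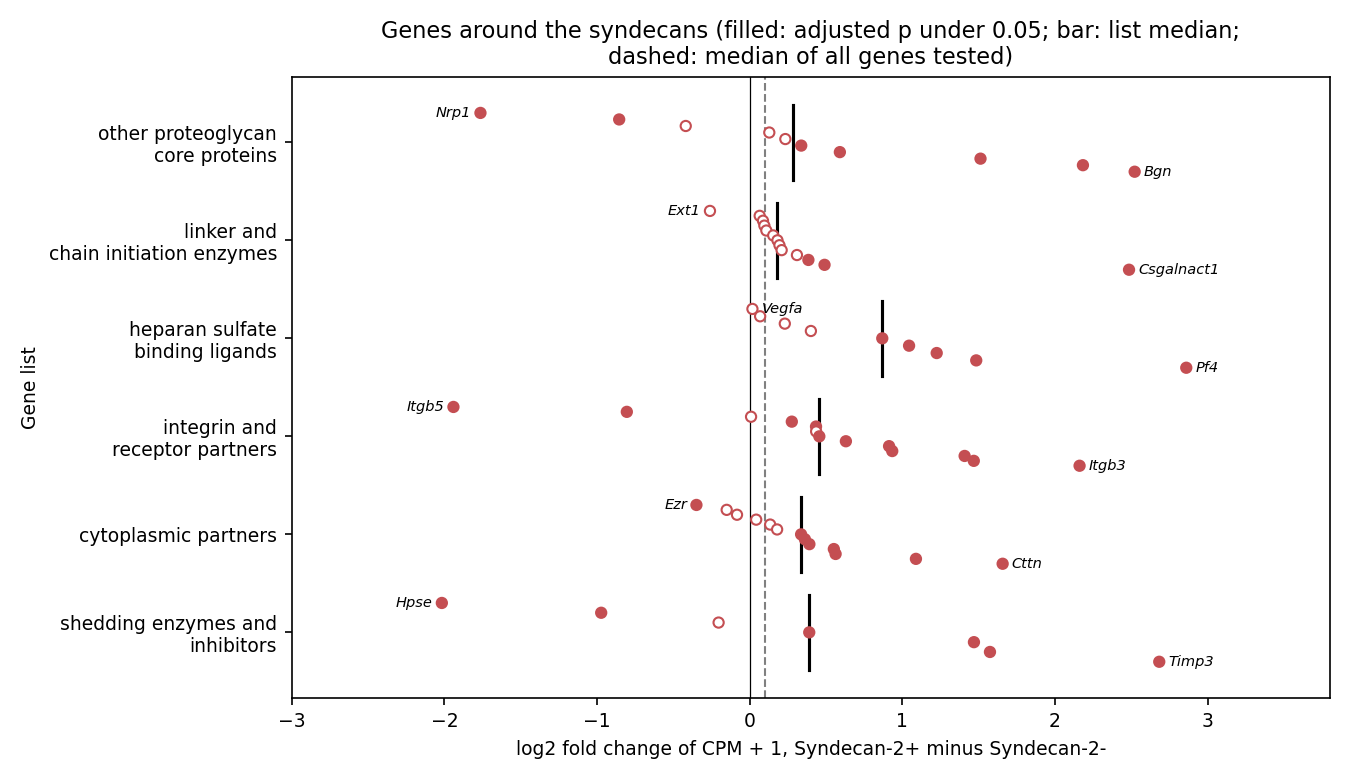
Log2 fold change of CPM plus 1, Syndecan-2+ minus Syndecan-2- (horizontal axis), for the 65 tested genes of 6 lists around the syndecans (vertical axis), filled where the adjusted p is under 0.05, with a bar at each list's median and a dashed line at the median of all genes, 0.10. The lowest and the highest gene of each list are named, such as Hpse at -2.02 and Timp3 at 2.68.

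Markers of cell types known for single syndecans were read beside the members. Between the sorted fractions 20.5% of all genes were called higher and 9.51% lower, the background for each count below. Of 10 plasma cell genes, 7 were tested, 6 rose, 0 fell and 1 was not called, while Sdc1 fell, and under TMM rescaling 4 were higher. Their summed level ranged over 27.5 to 34.9 CPM for Syndecan-2-, 54.0 to 71.8 CPM for Parent and 144 to 184 CPM for Syndecan-2+, where Jchain, the antibody joining chain, made up 93.2 to 136 CPM. Xbp1, a factor of the secretory programme, rose from 25.3 ± 3.16 to 38.4 ± 3.42 CPM, Slamf7, a receptor of plasma and NK cells, from 0.158 ± 0.139 to 1.93 ± 0.877 CPM, and Fkbp11, a folding enzyme, from 1.08 ± 0.205 to 2.78 ± 0.0490 CPM. The transcription factor genes Prdm1, from 0.623 ± 0.219 to 1.58 ± 0.653 CPM, and Irf4, from 1.71 ± 0.425 to 3.07 ± 1.04 CPM, passed narrowly (limma adjusted p = 0.0407 and 0.0475). Both calls were lost under TMM rescaling (log2 0.59 and 0.49), under quantile normalization (0.45 and 0.40) and without any 1 Syndecan-2- library. The Irf4 call was also lost without any 1 Parent library and without Syndecan-2+ library 1 or 2. Slamf7 and Prdm1 reached 1 CPM in Syndecan-2+ libraries alone. The filter thus admitted both by the fraction where they were high, which tilts the count toward rises. The untested Tnfrsf17, Derl3 and Eaf2 were at 0.0515 ± 0.0508, 0.259 ± 0.0985 and 0.0860 ± 0.0780 CPM in Syndecan-2- libraries. In Syndecan-2+ libraries they were at 0.375 ± 0.209, 0.511 ± 0.111 and 0.284 ± 0.241 CPM. Of 7 B cell precursor genes, 5 were tested, 0 rose, 3 fell and 2 were not called. Those that fell with Sdc1 were Ebf1, from 5.08 ± 0.687 to 0.846 ± 0.536 CPM, Pax5, from 3.03 ± 1.26 to 0.265 ± 0.184 CPM, and Igll1, from 1.70 ± 0.643 to 0.141 ± 0.0383 CPM. The summed B cell precursor level was 16.6 to 23.7 CPM in Syndecan-2- and 8.0 to 8.33 CPM in Syndecan-2+ libraries, and the part of either list in the Sdc1 difference was not tested.

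For Sdc2, 5 of 6 endothelial genes were tested, of which 3 rose and 1 fell (of all genes, 20.5% higher and 9.51% lower). Pecam1, an adhesion molecule also found on blood cells, fell from 57.0 ± 2.00 to 29.6 ± 4.76 CPM. Tek, the angiopoietin receptor, rose from 5.45 ± 0.896 to 24.7 ± 3.42 CPM and Kdr, a VEGF receptor, from 0.403 ± 0.339 to 3.27 ± 0.518 CPM. The hyaluronan scavenger receptor gene Stab2 rose from 0.354 ± 0.131 to 1.56 ± 0.375 CPM. Only Syndecan-2+ libraries reached 1 CPM for Stab2, so it could be tested only by being high there. With members moving both ways, the genes summed to 64.4 to 71.5 CPM in Syndecan-2- and 63.0 to 68.5 CPM in Syndecan-2+ libraries. The untested Cdh5, a junction protein that defines endothelium, was at 0.105 ± 0.105 and 0.635 ± 0.173 CPM. Of 8 stromal genes 4 were in the table and 2 were tested, of which Col1a2 rose from 0.193 ± 0.123 CPM to 2.07, 2.38 and 15.5 CPM and Pdgfrb fell from 32.1 ± 2.16 to 8.74 ± 1.16 CPM, and the 4 genes outside the table were not analysed here. Col1a2 likewise reached 1 CPM in Syndecan-2+ libraries alone. The 4 stromal genes in the table summed to 30.1 to 34.4 CPM in Syndecan-2- libraries and to 12.7, 13.2 and 44.5 CPM in Syndecan-2+ libraries 1, 2 and 3. Sdc2 was at 5.23, 4.17 and 4.34 CPM in the same 3 libraries. Of 7 macrophage genes, 2 were tested and both fell, and C1qa and C1qb were not analysed here. The summed level of the 5 in the table was 26.2 to 33.1 CPM in Syndecan-2- and 3.30 to 7.13 CPM in Syndecan-2+ libraries. Csf1r, the receptor of a macrophage growth factor, fell from 23.0 ± 2.45 to 1.42 ± 0.723 CPM and Cd68 from 5.44 ± 1.19 to 2.38 ± 1.30 CPM. The untested members did not all run that way. Adgre1 was at 0.286 ± 0.0728 CPM in Syndecan-2- and 0.0753 ± 0.0253 CPM in Syndecan-2+ libraries, Mrc1 at 0.0970 ± 0.0507 and 0.458 ± 0.105 CPM, and Vcam1 at 0.0339 ± 0.0587 and 0.570 ± 0.121 CPM, with no overlap for any of the 3. Of 4 epithelial genes, 2 were tested and 1 rose. They summed to 13.2 to 14.9 CPM in Syndecan-2- and 34.6 to 40.2 CPM in Syndecan-2+ libraries, most of it Krt18, a keratin, which rose from 10.1 ± 1.70 to 29.9 ± 1.14 CPM, with the untested Epcam at 0.242 ± 0.0752 and 0.984 ± 0.312 CPM. No neutrophil or erythroblast gene was tested, and their sums reached at most 0.551 and 4.43 CPM in any library. The neutrophil sum covers 2 of 6 genes, S100a8 and Mmp8, and S100a9, Ly6g, Camp and Ltf were not analysed here. The part of the endothelial, stromal, macrophage and epithelial genes in the members' differences was not tested.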

How the data were processed

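The authors deposited CPM values for transcripts of Ensembl models, per the file headers. STAR, Bowtie2 and GRCm38 appear in the submitters' processing notes, with no version. How reads were counted, filtered and scaled is not given in the sources used here. An offset of 0.0001 was subtracted and CPM was summed per gene symbol (20635 symbols). A symbol listed as a date was named through its gene ID. Ends are the listed stop minus 1. Dividing by the value taken as 1 read, the most common low value among genes with a single listed transcript, gave whole reads (within 0.1 read) in 64.8 to 67.2% of genes under 100 reads. That was too few to run a count test. The listed transcripts hold 51.5 to 54.5% of a full library's CPM total.

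Tests used limma 3.58.1 in R 4.3.3 (eBayes with trend) on log2 of CPM plus 1, all 9 libraries in 1 fit, for the 13997 genes that reached 1 CPM in 3 or more libraries, with Benjamini-Hochberg adjustment over all genes and a threshold of 0.05. "Rose", "fell" and "called" refer to that threshold. The pipeline was tested on simulated data. Tables and figures used Python 3.11.15, pandas 2.3.3 and matplotlib 3.10.9. The alternatives were pseudocounts, filters, scalings, variance models, the 6 libraries compared alone, transcripts, each library left out and the replicate number as a block. Deviations from the population mean correlated at 0.117 to 0.259 between libraries with the same replicate number in the labels (9 pairs) and at -0.206 to 0.00483 between others (18 pairs). Deviations cancel out within a population, so both ranges are linked. Libraries of the same number were weakly more alike, and the labels do not say what the numbers stand for. The main fit did not pair libraries, and the replicate block is the alternative that does.

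The members and lists were chosen with earlier results of these data known. Named genes are the members, the 5 nearest genes of each (clone and model names left out), every called gene of a list with at most 6 called (otherwise the 5 with the smallest p), and Kit, Ly6a and Cd34. Untested markers and Cxcr4 were named after their values were seen.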

Additional observations from a re-analysis of the deposited data

How the results depend on the processing

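Of the 12 member results, 9 kept their direction and their side of the threshold in every alternative that could be fitted. At a minimum of 10 CPM, Sdc2, Sdc3 and Sdc4 were not kept, so no value exists there. Sdc3 between the sorted fractions lost its call with transcripts in place of genes (-0.75), and so did Sdc2 between Syndecan-2- and Parent (-0.79). Sdc3 between Syndecan-2+ and Parent gained a call with TMM rescaling (-0.52), quantile normalization (-0.57), robust eBayes (-0.48), the replicate block (-0.48) and without Syndecan-2- library 2 (-0.48, adjusted p = 0.0483). It ran from -0.56 to -0.34 with 1 library left out. The replicate block changed no other member's call. The count of all genes called between the sorted fractions fell from 4205 to 2609 at a minimum of 10 CPM and to 2533 with transcripts, both with other features tested. For Syndecan-2+ and Parent it fell from 2409 to 1507 and 964. For Syndecan-2- and Parent it went from 373 to 685 with the replicate block, to 42 with transcripts and to 218 to 369 with 1 library left out, the lowest values being 218 without Parent library 1, 234 without Parent library 3 and 235 without Syndecan-2- library 2. The cause was not tested. With pseudocounts of 0.1 and 5 the log2 change of Sdc4 between the sorted fractions was -1.48 and -0.81 and that of Sdc3 was -0.85 and -0.49. Depth limits Sdc2 in Syndecan-2- libraries, at 4 to 9 reads.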
